A study of Mus musculus with 4 samples.

Results

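The immunity-related GTPases (IRGs) described here are 6 genes read across cultured mouse lung endothelial cells (ECs), namely Irgm1, Irgm2, Igtp, Iigp1, Tgtp1 and Tgtp2. They were taken by gene symbol, as 6 of the 24421 genes of the count table and as 755 of the 1205261 sites of the editing site table that carry one of these names. ECs came from 2 inducible ADAR1 knockout (i-KO) mice of independent litters, C57/BL6 males 2 weeks of age. In each mouse 1 culture was left non-induced (CON) and 1 received tamoxifen (TM), given as 4-OH-TM, which starts recombination of the floxed ADAR1 gene, so that mouse EC1 and mouse EC2 each gave 1 library of either kind, with n = 2 per group, paired by mouse. Where 4 values follow each other, they are those of EC1 CON, EC1 TM, then EC2 CON, then EC2 TM. All cultures carried the i-KO alleles, were selected with antibodies against the EC surface proteins Pecam1 and Icam2 and were passaged in culture before RNA was taken. A TM-treated culture without the floxed alleles was not analysed here, so the loss of ADAR1 and the exposure to TM cannot be told apart.

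IRGs are large GTPases of the mouse that cells make in response to interferon (IFN) and that act inside the cell, on membranes of vacuoles that hold parasites and bacteria. They are commonly sorted by the phosphate-binding loop of the GTPase domain. The GMS proteins (Irgm1, Irgm2 and Igtp, the last also called Irgm3) have a methionine where most GTPases have a lysine, sit on membranes of the cell itself and hold the effectors in check. The GKS proteins (Iigp1, also called Irga6, and Tgtp1 and Tgtp2, together called Irgb6) keep the lysine and are the effectors that load onto the vacuole, helped by the guanylate-binding proteins and by the system that conjugates LC3.

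The coding stretch of that loop shows the division among the members on chromosome 11. The codon in capitals encodes methionine in the GMS genes and lysine in the GKS genes, and the stretch is 24 bases long and was read 5′ to 3′ from the transcripts of GENCODE vM21, on the mRNA strand.
Irgm1: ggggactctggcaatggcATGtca
Irgm2: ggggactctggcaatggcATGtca
Igtp: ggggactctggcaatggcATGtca
Tgtp1: ggggaaacaggcgcagggAAGtcc
Tgtp2: ggggaaacaggcgcagggAAGtcc
The 3 GMS genes shared 1 identical stretch and Tgtp1 and Tgtp2 shared another. Over the whole coding sequence, identity was 61.8% for Irgm1 with Irgm2, 64.0% for Irgm1 with Igtp and 66.3% for Irgm2 with Igtp. It was 99.7% for Tgtp1 with Tgtp2, which differ at 4 bases of a coding length of 1245.

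A read often matches both Tgtp1 and Tgtp2. Of all windows of the longest transcript that have the length of 1 read, 83.1% of Tgtp1 and 80.2% of Tgtp2 also occur in another gene. The same share was 2.42% for Irgm2, 5.57% for Igtp, and 0 for Irgm1 and Iigp1. How reads from shared windows were split between Tgtp1 and Tgtp2 was not tested, and values of both genes are uncertain to that extent.

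Promoters were read because all 6 genes are known targets of IFN signaling. RefSeq promoters were matched by symbol for 5 of the 6, all but Iigp1, from 250 bases before to 50 bases after the start (GRCm38.p6). Capitals mark the motif GAAANNGAAA, the core of the IFN-stimulated response element (ISRE) that is bound by a complex that holds Stat2 and Irf9 and by Irf1, and the motif TTCNNNGAA, the IFN-gamma-activated site (GAS). Each line gives the gene strand, 5′ to 3′.
Irgm1, chr11:48871420-48871465, minus strand: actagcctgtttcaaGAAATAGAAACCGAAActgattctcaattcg
Irgm2, chr11:58214887-58214937, plus strand: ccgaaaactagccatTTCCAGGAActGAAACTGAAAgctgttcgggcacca
Igtp, chr11:58199496-58199546, plus strand: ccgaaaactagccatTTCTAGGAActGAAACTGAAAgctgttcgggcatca
Tgtp1, chr11:48992299-48992349, minus strand: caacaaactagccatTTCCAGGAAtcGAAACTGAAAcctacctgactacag
Tgtp2, chr11:49064258-49064308, minus strand: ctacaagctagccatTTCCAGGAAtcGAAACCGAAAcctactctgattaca
The ISRE letters were present in 5 of these 5 promoters and in 3.44% of 32851 promoters of the same length, read on both strands. GAS letters stood next to them in 4 of 5, all but Irgm1, against 8.30% of promoters, and 0.454% of promoters held both. Among 261 genes with a promoter that were called higher in TM, as described below, the shares were larger. There 15.7% held the ISRE letters, 14.2% the GAS letters and 4.98% both, with called members included. In Irgm1 there were 2 overlapping ISRE matches. The pair recurred in the same order, 2 bases apart, in Irgm2, Igtp, Tgtp1 and Tgtp2, at positions between −88 and −25 from the start. These are matches of letters, not measured binding.

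Gene models were taken from GENCODE vM21 on mm10 (GRCm38). All 6 are protein-coding. Irgm1 (ENSMUSG00000046879) spans chr11:48861968-48871683, Tgtp1 (ENSMUSG00000078922) chr11:48985327-48994172 and Tgtp2 (ENSMUSG00000078921) chr11:49057194-49064206, each on the minus strand. Irgm2 (ENSMUSG00000069874) spans chr11:58199618-58222782 and Igtp (ENSMUSG00000078853) chr11:58199556-58207591, both on the plus strand, so the 2 gene models overlap. On the same strand, 4.39% of the exon bases of Irgm2 and 8.01% of those of Igtp are shared between them. No member shares exon bases with a gene on the opposite strand.

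Depth and cell identity were checked first. Counts on genes amounted to 1095488 to 1778732 per library, 0.823% to 0.858% of the total of each count table, while 92.8% to 93.9% of the total lay on no gene. For a gene with no count, the upper limit was 3 counts, or 1.69 to 2.74 counts per 1000000 (CPM), which covers counting error only. Genes that share exon bases with a gene on the opposite strand are 24.1% of the annotated genes, and they held 73.9% to 78.9% of the counts on annotated genes. Of 10 EC markers, 9 to 10 had a count in each library and they summed to 1024 to 1335 CPM, against 69.2 to 100.4 CPM for 8 leukocyte markers, 478 to 562 CPM for 8 fibroblast and smooth muscle markers and 1.64 to 6.18 CPM for 6 epithelial markers, and in each list CON and TM overlapped. Of the leukocyte markers 2 had no count in any library. By scaled depth at listed exon and UTR sites, the summed EC markers were 18162 and 22772 in CON and 15707 and 17247 in TM, the fibroblast and smooth muscle markers 578 and 906 in CON and 204 and 318 in TM, and the leukocyte markers 20.9 to 36.8 over all 4 libraries. The part of these shifts in the results was not tested. Adar had 9, 47, 16 and 71 counts and was called higher in TM (log2 fold change 1.87, SE 0.45, adjusted p = 0.00609, edgeR), with 16.8% of its exon bases under Chrnb2 on the opposite strand. At its listed sites, median depth in exons 12 to 14 of its 15-exon transcript was 145 reads over 3 sites in EC1 CON and 169 over 1 site in EC2 CON, no site was listed in EC1 TM, and EC2 TM had 65.5 reads over 2 sites. Exons 1 to 11 had medians of 152.5, 664, 176 and 960 reads, and exon 15 had 99, 422, 156 and 835. In EC2 depth was thus lower in TM in exons 12 to 14 and higher in the other exons, while for EC1 TM no depth was measured in exons 12 to 14. The floxed part is described as exons 12 to 15, which takes in exon 15, where depth was higher in TM, and whether the exons are numbered alike was not tested.

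The comparison of CON with TM asked which of the IRGs differ after induction. In the gene counts, all 5 members that could be tested were higher in TM, by 3.75 to 65.9 times in the fitted values, and the sixth, Igtp, had no count in either CON library. Iigp1 had the largest fitted change. The test was edgeR's quasi-likelihood method, adjusted after Benjamini and Hochberg over 7899 genes, of which 4.39% of all genes were called higher and 3.35% lower. Only 1 of the 5, Irgm1, reached the filter level of 8.63 CPM in both CON libraries. The other 4 passed the filter through their TM libraries, so that the count of 5 of 5 could hardly have come out another way and is a description.

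**Figure D1:**
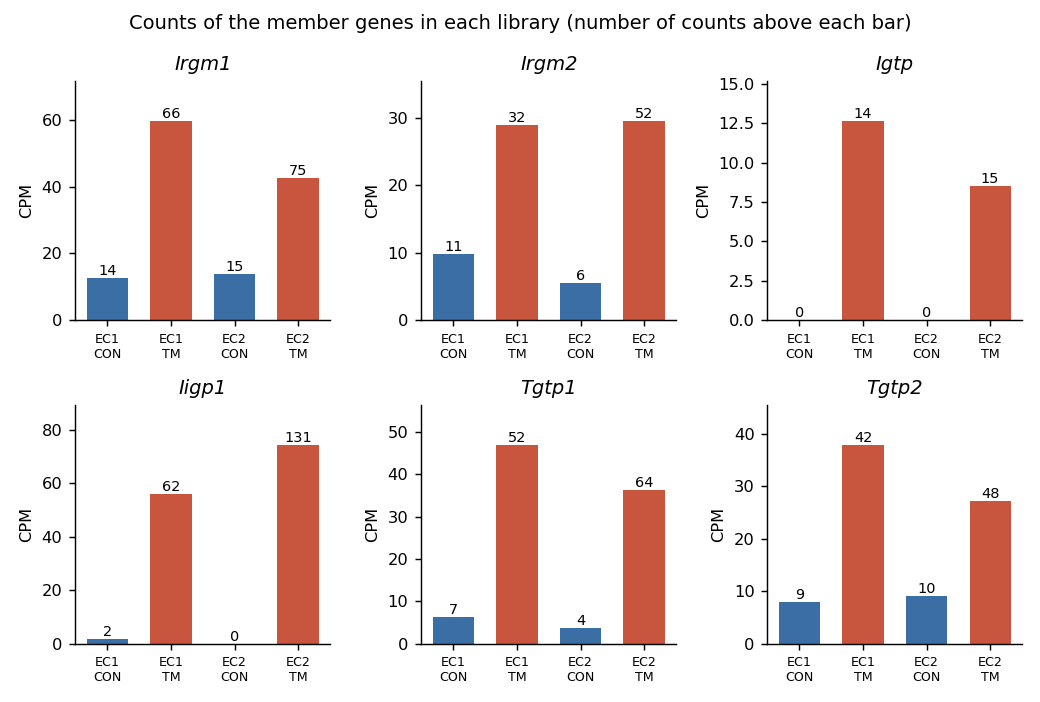
Bars give counts per 1000000 (CPM, linear axis from 0, a separate scale for each gene) of the 6 IRGs in the 4 libraries, with CON in blue and TM in red and the number of counts above each bar. In every gene both TM bars stand above both CON bars, and Igtp has 0 counts in EC1 CON and EC2 CON.

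The GMS regulators were measured at low counts. Irgm1, which controls the other IRGs and takes part in autophagy, had 14 counts in EC1 CON against 66 in EC1 TM, and 15 in EC2 CON against 75 in EC2 TM. In CPM that was 12.5 and 13.7 in CON and 59.7 and 42.7 in TM, so the groups did not overlap, as was the case for 25.3% of all tested genes in this direction. The log2 fold change was 1.95 (SE 0.42, n = 2 per group, adjusted p = 0.00218, edgeR). Irgm2, a regulator placed on the Golgi, had 11, 32, 6 and 52 counts in the same order, a log2 fold change of 1.92 (SE 0.51, adjusted p = 0.0136, edgeR). Its call was lost without EC2 CON (adjusted p = 0.124) and without EC2 TM (adjusted p = 0.0546). Igtp, the regulator of the endoplasmic reticulum and lipid droplets, had 0, 14, 0 and 15 counts and missed the filter, since only 1 library reached its level. Against the floor of 3 counts per library, Igtp was at least 4.75-fold higher in TM in EC1 and at least 3.12-fold higher in EC2. These and all later bounds against the floor take the TM count as exact, without its counting error.

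The GKS effectors held the largest fitted change, that of Iigp1. The fitted log2 changes of Tgtp2 (1.91), Irgm2 (1.92) and Irgm1 (1.95) were not separated, with SE of 0.42 to 0.51. By depth at listed sites, given below, the ratio of Tgtp2 was 45.8 in EC1 and 59.3 in EC2, against 7.30 and 6.88 for Irgm1. The gene model of Iigp1 (ENSMUSG00000054072) spans chr18:60376027-60392634 on the plus strand. Iigp1, the effector that is among the first to reach the vacuole of Toxoplasma, had 2 counts in EC1 CON against 62 in EC1 TM, and 0 in EC2 CON against 131 in EC2 TM. Within EC1 the TM to CON ratio in CPM was 31.5, with an exact 95% counting interval of 8.37 to 266, and within EC2 Iigp1 was at least 27.2-fold higher in TM against the floor of 3 counts. The fitted log2 fold change of 6.04 (SE 0.66, adjusted p = 8.84e-08, edgeR) depends on how zero counts are handled. Tgtp1 had 7, 52, 4 and 64 counts and rose by a log2 fold change of 3.04 (SE 0.51, adjusted p = 0.000114, edgeR). Tgtp2 had 9, 42, 10 and 48 counts and a log2 fold change of 1.91 (SE 0.49, adjusted p = 0.0104, edgeR). The call of Tgtp2 was lost without EC1 CON (adjusted p = 0.0549) and without EC1 TM (adjusted p = 0.0651). When the counts of Tgtp1 and Tgtp2 were summed to 1 gene, the log2 fold change was 2.45 (adjusted p = 7.64e-05, edgeR). DESeq2 called Iigp1, Irgm1, Tgtp1 and also Igtp (adjusted p = 0.0479), but not Irgm2 (adjusted p = 0.178) or Tgtp2 (adjusted p = 0.137). With the mouse as a block, edgeR called the same 5 genes, and DESeq2 called Iigp1 and Tgtp1 only, with an adjusted p of 0.0593 for Irgm1. Over all alternatives the adjusted p ranged from 6.57e-05 to 0.0593 for Irgm1, from 0.00188 to 0.231 for Irgm2, from 9.42e-08 to 0.0060 for Tgtp1 and from 0.00137 to 0.208 for Tgtp2, while Iigp1 stayed at or below 3.06e-05.

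A deeper reading of the same libraries came from the site table. It lists, per library, positions with at least 1 altered read (A-to-G on the gene strand), with the reference and altered reads that cover them. The sum of both is the read depth at a base. It does not pass through gene counting, and since it is read per base, gene length does not enter it directly. A comparison between genes is limited where a gene has few listed sites. Depth was scaled per 100000000 of the total of the library's count table. A site is listed only where a read differs from the genome, so the 34 and 27 sites of the 6 genes in EC1 CON and EC2 CON are far fewer than the 354 and 420 in EC1 TM and EC2 TM. With 2 mice an exact permutation test on depth could not pass 0.05, so these values carry no test. Even with the pairing by mouse ignored, the smallest two-sided p of such a test over 2 against 2 libraries is 0.333.

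At this depth every member was far above its CON level in TM. Across exon and UTR sites, median depth was 7.30 to 80.4 times higher in EC1 TM than in EC1 CON for all 6 genes, and 6.88 to 59.3 times higher in EC2 for the 5 genes that had a CON site. A depth at least 2-fold higher in TM was found for 10.3% of 10487 genes in EC1 and 8.34% of 11093 genes in EC2. The median log2 ratio of the members was 4.63 in EC1 and 4.05 in EC2, against 0.03 and −0.06 over all genes with depth. In bulk RNA, more cells that make a transcript and more transcript per cell cannot be told apart.

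**Figure D2:**
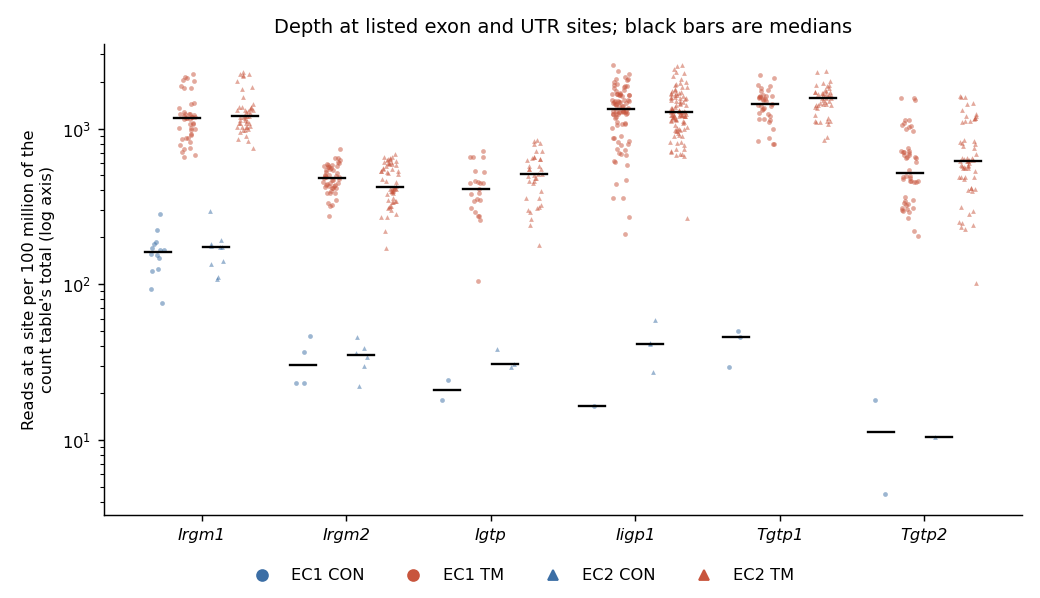
Each point is 1 listed exon or UTR site, with reads per 100000000 of the count table's total on a log axis, CON in blue, TM in red, circles for EC1 and triangles for EC2, and black bars for medians. Medians in TM lie between 407 and 1574, and those in CON between 10.5 and 174, highest for Irgm1. Tgtp1 has no listed site in EC2 CON.

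Irgm1 was the member with a substantial level before induction. Its median depth was 214 reads over 14 sites in EC1 CON, 1547 over 44 in EC1 TM, 249.5 over 10 in EC2 CON and 2479 over 47 in EC2 TM. Scaled, this was 161 and 174 in CON and 1174 and 1196 in TM, a ratio of 7.30 in EC1 and 6.88 in EC2, the smallest among the members in both mice. By scaled depth Irgm1 stood 2720th of 11825 genes in EC1 CON and 302nd of 11774 in EC1 TM.

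The remaining GMS genes started lower and rose further. Irgm2 had a median of 40 reads over 4 sites in EC1 CON, 636.5 over 50 in EC1 TM, 50.5 over 6 in EC2 CON and 876.5 over 58 in EC2 TM, a log2 ratio of scaled depth of 4.01 and 3.59. In EC1 the former was 3.34 over sites listed in both libraries. Igtp, too low to be tested by counts, had 28 reads over 2 sites in EC1 CON, 537 over 23 in EC1 TM, 44 over 3 in EC2 CON and 1052 over 37 in EC2 TM, a log2 ratio of 4.28 and 4.05. The scaled depths of Irgm2 in TM (483 and 423) and Igtp in TM (407 and 507) overlapped between mice, so these neighbours in the order were not separated.

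The CON depth of the GKS genes rested on few sites, at most 4 per library. Iigp1 had 1 listed exon or UTR site in EC1 CON, with 22 reads, and 4 in EC2 CON, with a median of 59.5 reads, against 1751 reads over 88 sites in EC1 TM and 2630 over 103 in EC2 TM. The scaled ratio was 80.4 in EC1 and 30.6 in EC2. For EC1 it rests on that single CON site, and set against the nearest TM site within 100 bases, a comparison chosen after seeing the data, that site gave a log2 ratio of 4.82 in place of 6.33. Tgtp1 had 61 reads over 3 sites in EC1 CON, 1900 over 37 in EC1 TM, no site in EC2 CON and 3263 over 45 in EC2 TM, the highest scaled depth of the 6 genes in both TM libraries. Tgtp2 had 15 reads over 2 sites in EC1 CON, 680.5 over 50 in EC1 TM, 15 over 1 site in EC2 CON and 1284 over 61 in EC2 TM, a scaled ratio of 45.8 and 59.3. Against the nearest TM sites its log2 ratio was 6.40 in EC1 and 6.80 in EC2 in place of 5.52 and 5.89, and over sites listed in both libraries it was 6.73 in EC1, so the order of Iigp1 and Tgtp2 by this ratio in EC1 turned with the sites compared.

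In TM the order by scaled depth was Tgtp1 (1442 and 1574), Iigp1 (1329 and 1269), Irgm1 (1174 and 1196), Tgtp2 (516 and 619), and then Irgm2 and Igtp. Neighbours among the first 4 did not overlap between mice, but the ranges of their single sites did, as the plot of depth per site shows. The places of Tgtp1 and Tgtp2 depend on how reads from their shared windows were split, which was not tested. Sites of Tgtp1 were all annotated as exon, while those of the other genes include UTRs. The order in CON was different, with Irgm1 first in both mice. From highest to lowest member, scaled depth spanned 14.3 times in EC1 CON and 16.6 times in EC2 CON, and 3.54 and 3.72 times in EC1 TM and EC2 TM. The lowest member in both CON libraries was Tgtp2, with 2 listed sites in EC1 and 1 in EC2, so the CON spans are uncertain. Tgtp1, without a site in EC2 CON, is not in the span of that library.

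Position along the gene showed the same separation. Irgm1 had a single 5′ UTR site in each CON library, with 376 and 425 reads, against medians of 2572 and 4499 in EC1 TM and EC2 TM. Its coding exon sites had 227 and 249.5 reads in CON and 1521 and 2467 in TM, and its 3′ UTR sites 205.5 and 159 in CON and 1313 and 2149 in TM. Intron sites stayed far below exon sites, with a median of 43.5 reads in EC1 TM and 46 in EC2 TM for Igtp, where the coding exon had 485.5 and 1003. Listed sites of both TM libraries covered 5′ UTR, coding exon and 3′ UTR of Irgm1, Irgm2, Igtp, Iigp1 and Tgtp2. All 78 sites of Tgtp1 were annotated as exon.

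**Figure D3:**
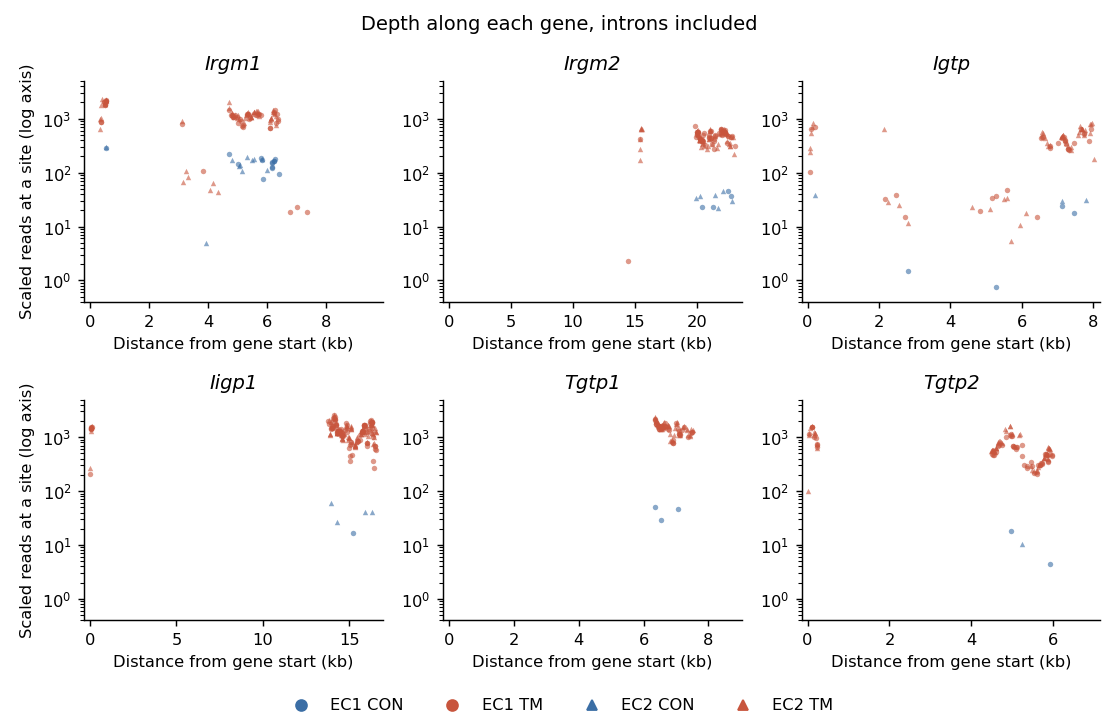
Points give the scaled read depth of each listed site (log axis) against its distance from the start of the gene in kilobases, introns included, with CON in blue, TM in red, circles for EC1 and triangles for EC2. Sites of TM libraries form dense bands over the exons of Irgm1, Iigp1 and Tgtp1, CON sites lie below them in each gene, and the intron sites of Irgm1 and Igtp lie below the exon sites of the same library.

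Counts and depth agreed in direction for every member, but not in size. The read pairs that the median depth implies over the longest transcript numbered 17300 for Irgm1 in EC1 TM, where 66 were counted. Counts came to 0.140% to 0.444% of the implied pairs in the 12 TM values of the 6 genes, with a median of 0.270%. In the 11 CON values they ranged from 0 to 4.79%, with a median of 0.588%. The source of this gap was not tested. It goes with counts on genes below 1% of each table, and fold changes from counts were smaller than those from depth for Irgm1, Irgm2, Tgtp1 and Tgtp2.

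Of 10 other IRG family genes on the list, 3 were tested and 2 were called higher in TM, where 4.39% of all genes were. Gm4951 had 0, 13, 0 and 30 counts (adjusted p = 0.000429, edgeR), and against the floor of 3 counts per library it was at least 5.33-fold higher in TM over the group. Gm4841 had 25, 952, 5 and 912 counts, a log2 fold change of 5.67 (SE 0.45, adjusted p = 2.29e-10, edgeR), more counts than any of the 6 members, although its listed exon and UTR sites had a median of only 17 reads over 3 sites in EC1 TM and 20 over 1 site in EC2 TM. None of the 3 tested genes reached the filter level in both CON libraries, so the count of calls is a description. By depth, 6 of 7 genes with a value in EC1 and 4 of 5 in EC2 were at least 2-fold higher in TM. Over all genes with depth the share was 10.3% in EC1 and 8.34% in EC2.

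Guanylate-binding proteins are the larger GTPases that IFN induces together with IRGs and that assemble on the same vacuoles. All 7 that passed the filter, of 11 listed, were called higher in TM, where 4.39% of all genes were. Their median log2 fold change was 2.92, or 2.74 with those at or under 3 counts in CON at their bound. Only 2 of the 7 reached the filter level in both CON libraries, so this count and median are a description. Gbp7 had 17.8, 91.4, 11.9 and 134 CPM and a log2 fold change of 2.92 (SE 0.39, adjusted p = 3.23e-06, edgeR). Gbp2, the most studied of the family in resistance to Toxoplasma, had 4, 40, 1 and 89 counts (log2 fold change 4.22, SE 0.60, adjusted p = 8.05e-06, edgeR). Gbp5, which also promotes inflammasome assembly, had 9, 81, 16 and 137 counts (log2 fold change 2.74, adjusted p = 2.63e-05, edgeR), and Gbp3 had 10, 63, 8 and 89 (log2 fold change 2.71, adjusted p = 7.89e-05, edgeR). By depth, 10 of 10 genes in EC1 and 9 of 9 in EC2 were at least 2-fold higher in TM, with medians of 4.42 and 3.84 on the log2 scale. Over all genes with depth, 10.3% in EC1 and 8.34% in EC2 were that much higher. Gbp2b, Gbp10 and Gbp11 in both mice and Gbp8 in EC1, named after their values were seen, had a median CON depth of at most 3 reads. Their ratios are therefore uncertain.

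Of the LC3 conjugation system, whose Atg proteins direct IRGs and guanylate-binding proteins to the vacuole, 5 of 11 listed genes were tested. None of these 5 passed the edgeR test, and their adjusted p lay between 0.554 and 0.935, with a median log2 fold change of −0.09. Over all genes 4.39% were called higher and 3.35% lower, so the lack of a call among 5 genes is a description. No gene of the list had an unadjusted p under 0.05 in this fit, and none was called by DESeq2. By depth, the median log2 ratio of all 11 genes was 0.19 in EC1 and 0.02 in EC2. Among ubiquitin ligases and adaptors, Sqstm1, the adaptor that ties ubiquitin to LC3, was the 1 of 3 tested genes called, with 46, 96, 63 and 219 counts and a log2 fold change of 1.11 (SE 0.34, adjusted p = 0.0365, edgeR). At its sites the depth was 2.27 and 2.33 times higher in TM. Of its exon bases, 17.3% lie under exons of Mrnip on the opposite strand. By depth, 3 of 6 genes of this list in EC1 and 2 of 6 in EC2 were at least 2-fold higher in TM, against 10.3% and 8.34% of all genes. Trim21, a ubiquitin ligase named after its values were seen, had 1, 4, 0 and 28 counts and was not tested. Its median depth was 19 reads over 5 sites in EC1 CON, 210 over 9 in EC1 TM, 1 over 3 in EC2 CON and 339.5 over 24 in EC2 TM.

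**Figure D4:**
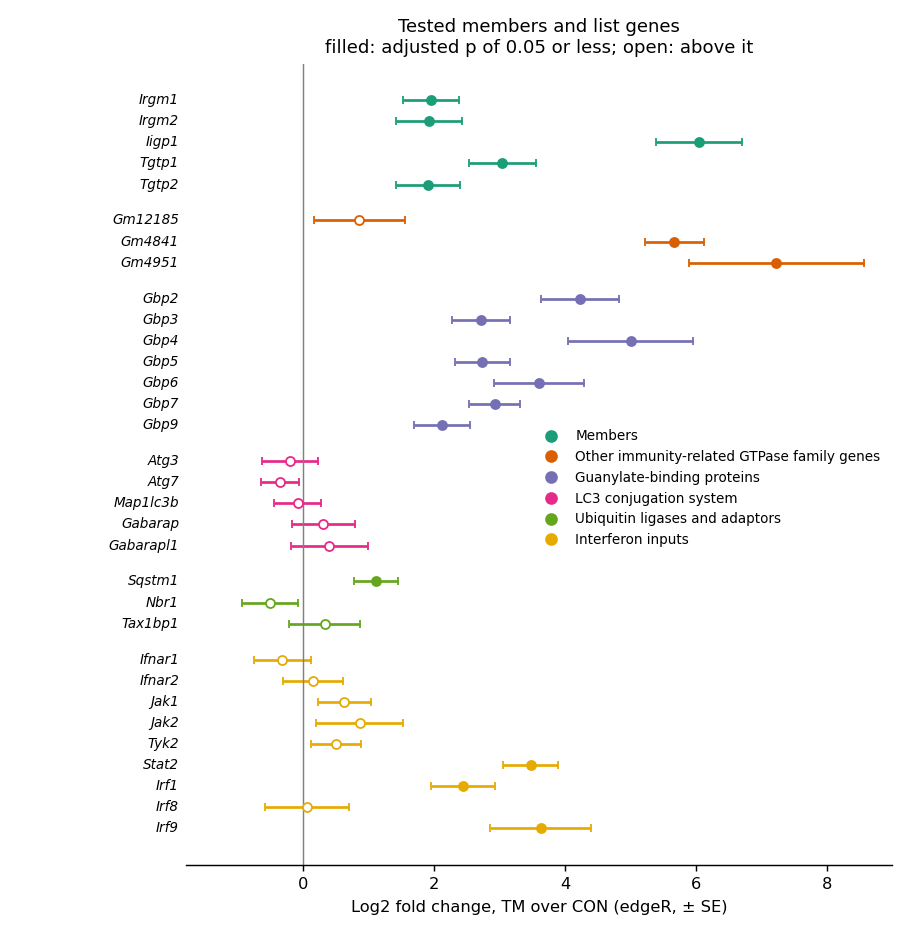
Log2 fold changes of TM over CON from edgeR are plotted with their SE for the tested members and the tested genes of the 5 lists, n = 2 per group, where filled points have an adjusted p of 0.05 or less. Members and guanylate-binding proteins lie between 1.91 and 6.04, and the 5 LC3 conjugation genes lie between −0.35 and 0.39 with open points.

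Of the IFN inputs, the 3 factors named above as binding the ISRE, Stat2, Irf9 and Irf1, were called higher. Of 13 listed, 9 were tested and 3 called higher, where 4.39% of all genes were. These 3 reached the filter level in neither CON library and were tested through their TM libraries, so the count is a description. Of the 4 genes that reached it in both CON libraries none was called higher or lower by edgeR. Stat2 had 9, 98, 9 and 164 counts (log2 fold change 3.47, SE 0.42, adjusted p = 6.66e-07, edgeR), and Irf1 had 9, 41, 6 and 65 (log2 fold change 2.44, SE 0.49, adjusted p = 0.000949, edgeR). Irf9, the DNA-binding partner of Stat2, had 1, 22, 2 and 28 counts (adjusted p = 0.00199, edgeR), which is at least 6.63-fold higher over the group against the floor. Irf8, a listed factor of the same family as Irf1 and Irf9, was named after its values were seen. It had 7, 6, 11 and 19 counts and was tested but not called (log2 fold change 0.05, SE 0.64, adjusted p = 0.978, edgeR). Its depth ratio was 2.83 in EC1 and 2.03 in EC2. By depth, 4 of 10 genes with a value in EC1 and 6 of 11 in EC2 were at least 2-fold higher in TM. The share over all genes with depth was 10.3% in EC1 and 8.34% in EC2.

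None of the 4 listed receptor chains was called by edgeR, and only 2 of them were tested. Over all genes 4.39% were called higher and 3.35% lower, so this too is a description. Ifnar1, a chain of the type I IFN receptor, had 24, 20, 29 and 35 counts (log2 fold change −0.32, SE 0.44, adjusted p = 0.758, edgeR) and a depth ratio of 0.679 in EC1 and 0.548 in EC2. Ifngr1, a chain of the IFN-gamma receptor, was not tested, with 2, 4, 7 and 12 counts and a depth ratio of 0.740 and 0.793. The genes that follow were named after their values were seen. Ifnar2, the partner chain of Ifnar1, had 29, 28, 16 and 35 counts (log2 fold change 0.15, SE 0.45, adjusted p = 0.914, edgeR), and its depth ratio was 0.772 in EC1 but 2.95 in EC2. Ifngr2, the partner chain of Ifngr1, was not tested and had a depth ratio of 0.664 and 0.584. Ifnb1 and Ifng, the 2 IFN genes on the list, had no counts in any library. Ifng also had no listed exon or UTR site, while Ifnb1 had 3 in EC1 TM with a median of 121 reads and 3 in EC2 TM with 189, and none in the CON libraries.

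The genes outside the members whose counts ran most like the members' mean over the 4 libraries were Gbp3, Lag3 and Olfr99. Their root mean square distances to that mean were 0.0719, 0.0897 and 0.106 in centred log2 CPM, over 4 libraries, which is smaller than those of the members themselves (0.118 for Tgtp1 to 1.17 for Iigp1). Lag3, an inhibitory receptor known from T cells, had 1, 12, 0 and 18 counts, and Olfr99, an olfactory receptor gene, had 18, 123, 12 and 152.

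The last readout was A-to-I RNA editing, the reaction that ADAR1 catalyses, seen as A-to-G differences. A site passed when it had at least 5 reads, at least 3 of them altered, and a share of altered reads from 5% to 95%. In the table as a whole, 4.16%, 3.44%, 4.06% and 3.60% of sites with 5 or more reads passed, in the order of the libraries. In the exons and UTRs of the 6 genes no site passed in any library, out of 26, 292, 24 and 351 sites with 5 or more reads.

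Most of these sites had 1 altered read. That was so for 24 of 26 sites in EC1 CON, 232 of 292 in EC1 TM, 23 of 24 in EC2 CON and 282 of 351 in EC2 TM. In TM, where median depth was 537 to 3263 reads, the share of altered reads did not exceed 1.10% at any exon or UTR site of the members in EC1 and 0.716% in EC2. Such deep sites rarely pass in general, and of all sites with 500 or more reads 0.169% passed in EC1 TM and 0.224% in EC2 TM. The members had 259 and 344 sites of that depth, none of which passed, so a difference from the rest of the table was not detectable.

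Repeats of the SINE class, where paired copies give the double strands that ADAR1 acts on, lie in the 3′ UTRs of 3 members. Irgm1 had 13 SINE sites there, Irgm2 had 5 and Iigp1 had 40. In Irgm1 each listed SINE site had 1 altered read, at 7 sites in EC1 CON, 4 in EC1 TM and 4 in EC2 TM. In Iigp1, 27 of 41279 reads were altered over 19 sites in EC1 TM and 32 of 72647 over 24 sites in EC2 TM. Since a site is listed only with at least 1 altered read, shares at so few altered reads follow the depth and give no comparison of CON with TM. Of all 3′ UTR SINE sites with 100 or more reads, 8.78%, 4.30%, 9.89% and 5.22% passed, in the order of the libraries. The members had 7, 26, 0 and 31 such sites, and none passed. With so few member sites, whether they differ from those of other genes cannot be decided.

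Within a mouse, a site with 5 or more reads in both libraries could be compared by Fisher's exact test, two-sided and adjusted over the whole table, which compares 2 libraries and not the conditions. This was possible at 5 member sites in EC1 and 4 in EC2. None passed, with unadjusted p from 0.0553 to 0.310, where 0.141% of 45320 sites in EC1 and 0.347% of 47499 in EC2 were called. Each of these member sites had 1 altered read in CON, the fewest a listed site can have, and fewer reads there than in TM. The share in CON was therefore set by depth, and the test cannot decide whether editing differed at these sites. A site counted as higher in a library when its share there exceeded that of the other by at least 0.05 as a fraction. In that library it also had to pass the limits on reads, altered reads and share given above. Under this rule no member site was higher in CON in either mouse. Among all listed sites, 6923 were higher in CON in EC1 and 6178 in EC2. Only 27 member sites in EC1 CON and 25 in EC2 CON had 5 or more reads, against 287841 and 262373 sites in all. With so few member sites, the lack of such a site cannot decide whether editing of the members was higher in CON. In the other direction there were 3 member sites of 4548 in EC1 and 2 of 5537 in EC2, all beyond the 3′ ends of Igtp and Iigp1 and covered by 5 to 20 reads in the TM library. The Igtp sites, at chr11:58234012 in a B1 repeat and chr11:58255746 in a B2 repeat, had 3 of 5 and 4 of 7 altered reads in EC1 TM. None of these sites was listed in the CON library of the same mouse, so a change in editing and a change in coverage cannot be told apart.

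**Figure D5:**
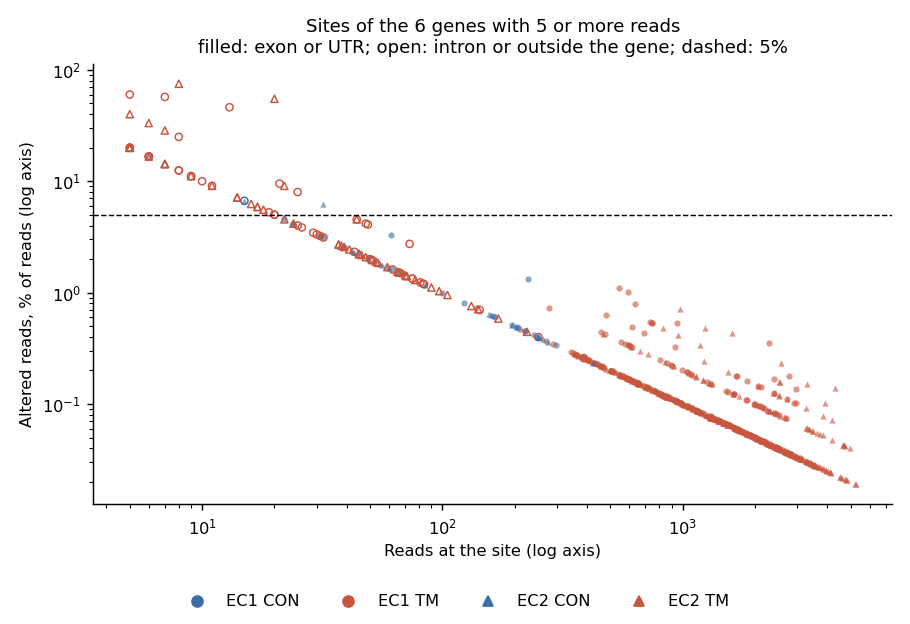
The share of altered reads in percent is plotted against the reads at each site of the 6 genes with 5 or more reads (both axes logarithmic), filled for exon and UTR sites and open for intron sites and sites outside the gene, with CON in blue and TM in red and a dashed line at 5%. Most points fall on the line that 1 altered read gives at each depth, and the exon and UTR sites of the TM libraries lie below 1.10%.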

How the data were processed

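Raw read counts per gene were deposited by the authors for 4 libraries, without normalization, after trimming (Trimmomatic 0.38), alignment of read pairs to mm10 (STAR 2.6.1a) and counting (HTSeq 0.11.2) under default settings. The library kit keeps the strand of the RNA, and HTSeq by default counts 1 orientation. Which strand the counts hold was not tested. Rows that name no gene gave the table totals and entered no fit. The authors also deposited, per site and library, reference and altered read counts and the altered fraction from BCFtools mpileup. Unlisted sites carry a fraction of 0.

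Counts were tested with edgeR 4.0.16 (filterByExpr, TMM, quasi-likelihood, condition only, threshold 0.05) in R 4.3.3, with SE taken as the log2 fold change over the root of F. Alternatives were DESeq2 1.42.0, RLE scaling, the mouse as a block, other filters, each library left out in turn, and Tgtp1 and Tgtp2 summed. Pairs come from the same mouse. Deviations from group means correlated between CON and TM of a mouse with r = 0.163 over 7899 genes. Sites were read in Python 3.11.15 with scipy 1.17.1. Fits and site tests were tested on simulated data. Annotation was GENCODE vM21, and that of the authors is not given in the sources used here.

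Members and lists were chosen with earlier results of these data known. Named were the members, at most 4 called genes per list by adjusted p, Stat2, Irf1, Irf9, Ifngr1, Ifnar1, Adar, and the 3 nearest profiles. A further gene chosen for the list of IFN inputs is not reported here. With 1 culture per mouse and condition, p-values measure only the spread between these libraries.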

Additional observations from a re-analysis of the deposited data

How the results depend on the processing

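Directions did not change: in 49 refits of the 5 tested members every log2 fold change was above 0, from 1.57 to 9.43, and 40 kept the call. The 9 lost calls were those of Irgm2 and Tgtp2 with DESeq2 and with single libraries left out, and of Irgm1, Irgm2 and Tgtp2 with DESeq2 and the block. Igtp was fitted in 5 alternatives and called in 2, without a filter and with DESeq2. The count of 5 members called higher was 4 with each library left out, 2 with DESeq2 and the mouse as a replicate block, and 1 with at least 10 counts in every library, a filter that only Irgm1 passed. The 13 list genes called higher became 10 to 13 with a library left out, 8 with DESeq2 and the replicate block, and 3 with at least 10 counts in every library. With edgeR and the mouse as a replicate block, calls over all genes went from 347 higher and 265 lower to 600 and 584, with the same 5 members and 13 list genes called. DESeq2 without the block called 234 higher and 128 lower, and at least 10 counts in every library 262 and 244.

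The median depth ratio of the members in EC2, 4.05 on the log2 scale, was 3.55 over sites listed in both libraries, where only Irgm1, Irgm2 and Igtp remained. Over intron sites the log2 ratio was 3.75 in place of 2.78 for Irgm1 in EC2, and 4.87 in place of 4.28 for Igtp in EC1. The CON side of these rested on 1 site with 7 reads for Irgm1 and 2 sites with a median of 1.5 reads for Igtp. Such CON depths are too low for the intron ratios to be set against those of the exons. Sites of members higher in TM, 3 in EC1 and 2 in EC2, fell to 1 and 1 at 10 or more reads, to 0 and 1 at 20 or more reads, and to 0 in both over sites listed in both libraries. Low CON counts and few CON sites limit every fold given here.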

Other observations

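Genes that lie near the members did not all move with them. The count table held 16 genes, outside the lists, within 100000 bases of a member in GENCODE vM21. Of these 7 were tested by edgeR, where 4.39% of all genes were called higher, and 1 was called higher, Olfr1396. This olfactory receptor gene, 45776 bases from Tgtp2, had 1, 24, 1 and 18 counts, given as EC1 CON, EC1 TM and then the same for EC2. Olfr1396 reached the filter level in neither CON library, and it had no depth ratio in either mouse. The 6 others were not called, among them Trim41 with 257, 292, 168 and 455 counts. Ifi47, which is itself an IRG, had 0, 3, 2 and 3 counts and was not tested, but its log2 depth ratio of TM over CON was 3.87 in EC1 and 3.70 in EC2. Ifi47 was the 1 gene among 5 with depth in both mice that was at least 2-fold higher in both. Of all genes with depth, 10.3% were at least 2-fold higher in EC1 and 8.34% in EC2. These genes were named after their values were seen.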
